A study of Mus musculus with 24 samples.

Results

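The mitotic G2/M genes described here are 35 genes whose products build and run mitosis, taken by their symbols from the 56980 genes of the count table. They fall into 6 roles: mitotic cyclins and kinases (7 genes), the spindle checkpoint and the anaphase-promoting complex (5), the centromere and kinetochore (8), chromosome structure and chromosomal passengers (5), spindle assembly (5), and the central spindle and cytokinesis (5). All 35 had counts, and 33 of the 35 entered the tests. Ccnb2 and Kif4 had too few counts to enter the main tests.

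The genes were followed in primary cultures of microglia, the macrophages that live in brain tissue, taken from the cortex and hippocampus of neonatal wild-type mice (P1-P3) by shaking them off mixed glial cultures, which also hold astrocytes and cells of the oligodendrocyte lineage. The cultures received bafilomycin A1 (BafA1) at 50 nM or the vehicle DMSO for 1, 7, 14 or 22 h, with 3 replicates of each treatment at each time and 24 libraries in all. BafA1 blocks the proton pump that acidifies lysosomes, and the series asks how microglia respond when lysosomes lose their acidity. The replicates are called biological, but which litters or flasks they came from is not given in the sources used here, and the p-values below therefore rest on the spread between these samples, which may be partly technical.

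Cells that divide express these genes late in the cycle. Cdk1 bound to cyclin B drives entry into mitosis, kinetochores then attach chromosomes to the spindle, and the spindle checkpoint holds back the anaphase-promoting complex until every chromosome is attached. In cells that have left the cycle, the DREAM complex of MuvB, E2F4 and a pocket protein holds the genes down. In cycling cells MuvB joins with B-Myb and FoxM1 and the genes are switched on. MuvB contacts the promoters at a short element called the cell cycle genes homology region (CHR), and NF-Y, which binds CCAAT boxes, commonly acts beside it. Microglia in the adult brain divide slowly, while microglia of newborn mice grown on mixed glia are known to proliferate.

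The promoters of 6 members with both elements are shown first, because the elements are what many of these genes share at their start sites. They run 5′ to 3′ on the gene's strand, from 250 bases before the start site to 50 after it, with CHR elements (TTTGAA or TTCGAA, read on both strands) and CCAAT boxes (CCAAT, read on both strands) in capitals. The sequences are from RefSeq (build GRCm38.p6). They lie at chr11:99024140-99024439 on the minus strand for Top2a, chr5:30666636-30666935 on the plus strand for Cenpa, chr10:69352863-69353162 on the minus strand for Cdk1, chr2:69206164-69206463 on the minus strand for Spc25, chr7:80294201-80294500 on the plus strand for Prc1 and chr3:27153829-27154128 on the minus strand for Ect2.
Top2a promoter: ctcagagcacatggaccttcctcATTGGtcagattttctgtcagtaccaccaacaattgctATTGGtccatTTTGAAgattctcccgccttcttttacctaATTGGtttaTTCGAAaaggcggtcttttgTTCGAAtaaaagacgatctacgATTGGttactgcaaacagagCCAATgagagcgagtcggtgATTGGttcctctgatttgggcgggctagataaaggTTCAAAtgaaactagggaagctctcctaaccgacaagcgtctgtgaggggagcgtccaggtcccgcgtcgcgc
Cenpa promoter: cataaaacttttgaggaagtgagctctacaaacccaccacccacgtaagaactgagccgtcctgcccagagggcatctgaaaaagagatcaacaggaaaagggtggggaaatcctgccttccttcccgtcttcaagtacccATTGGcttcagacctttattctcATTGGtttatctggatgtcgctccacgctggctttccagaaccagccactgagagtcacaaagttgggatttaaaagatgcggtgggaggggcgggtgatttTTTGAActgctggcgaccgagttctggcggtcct
Cdk1 promoter: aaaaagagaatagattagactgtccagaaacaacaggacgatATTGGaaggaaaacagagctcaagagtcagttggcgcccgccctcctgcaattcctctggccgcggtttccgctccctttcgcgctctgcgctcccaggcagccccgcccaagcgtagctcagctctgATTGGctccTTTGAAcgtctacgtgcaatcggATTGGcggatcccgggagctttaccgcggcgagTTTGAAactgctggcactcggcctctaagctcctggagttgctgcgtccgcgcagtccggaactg
Spc25 promoter: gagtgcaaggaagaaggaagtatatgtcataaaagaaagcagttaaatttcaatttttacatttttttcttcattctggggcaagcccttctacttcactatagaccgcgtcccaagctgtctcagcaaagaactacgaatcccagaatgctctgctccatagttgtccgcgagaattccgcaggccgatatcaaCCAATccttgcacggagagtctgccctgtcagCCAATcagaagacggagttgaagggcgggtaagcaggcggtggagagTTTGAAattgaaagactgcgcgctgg
Prc1 promoter: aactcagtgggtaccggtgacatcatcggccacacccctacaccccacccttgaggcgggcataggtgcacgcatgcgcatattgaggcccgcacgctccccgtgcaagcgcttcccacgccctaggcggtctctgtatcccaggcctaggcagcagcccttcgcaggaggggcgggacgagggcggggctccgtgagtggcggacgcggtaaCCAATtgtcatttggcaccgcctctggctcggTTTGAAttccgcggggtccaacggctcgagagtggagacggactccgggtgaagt
Ect2 promoter: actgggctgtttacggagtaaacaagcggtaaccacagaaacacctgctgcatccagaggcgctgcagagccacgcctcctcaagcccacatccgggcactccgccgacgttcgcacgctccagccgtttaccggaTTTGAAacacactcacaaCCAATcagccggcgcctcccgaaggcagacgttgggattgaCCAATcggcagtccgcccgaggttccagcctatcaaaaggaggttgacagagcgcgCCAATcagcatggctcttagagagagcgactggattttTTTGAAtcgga

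In these 6 windows the Top2a promoter held 4 CHR matches and 6 CCAAT boxes, and the Prc1 promoter held 1 of each. No base was shared by a CHR match and a CCAAT box in any of the 6. A promoter window was at hand for 31 of the 35 members; those of Ccna2, Aurkb, Tpx2 and Kif20a were not. A CHR match lay in 25 of the 31 (80.6%), against 21.7% of all 27025 genes of the promoter table and 16.2% of the tested genes with a window. CCAAT boxes lay in 23 of the 31 (74.2%), against 41.1% of all genes. Both lay in 21 of the 31 (67.7%), against 8.61% of all genes, 53.5% of 43 other mitotic genes and 20.8% of 24 S phase replication genes. Ccnb1 and Cenpe had CCAAT boxes without a CHR match, Ndc80, Knl1, Kif2c and Anln had a CHR match without a CCAAT box, and the windows of Birc5, Melk, Nuf2 and Nusap1 held these letters for neither.

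The 34 CHR matches of the 25 members had their first base at a median distance of -1 base from the start site, and 24 of the 34 lay within 50 bases of it, against 25.2% of the CHR matches in all promoters. The 54 CCAAT boxes had a median distance of -74.5 bases, and 35 of the 54 lay between 150 and 20 bases before the start. The share of all CCAAT boxes in that interval was not counted. Within 50 bases of the start lay 16 of the 54, against 28.2% of the CCAAT boxes in all promoters, a similar share. A match is a run of letters and not a measured binding site.

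**Figure D1:**
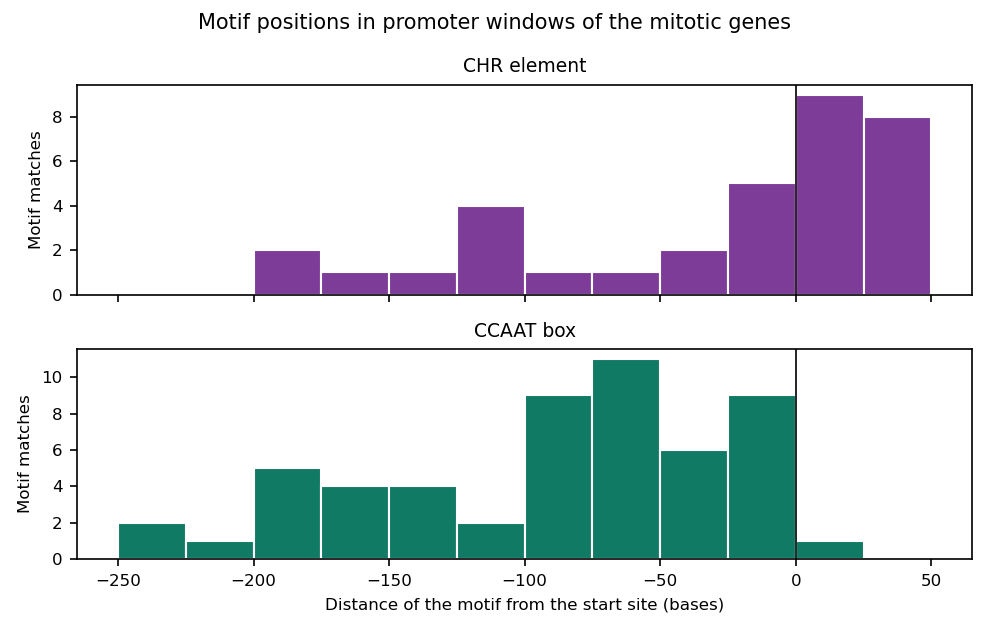
Number of CHR matches (upper panel) and CCAAT boxes (lower panel) by distance in bases from the start site, in bins of 25 bases, in the promoter windows of the mitotic genes. The 34 CHR matches gather at the start site and the 54 CCAAT boxes lie mostly upstream of it, as does most of each window.

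Sequencing depth lay between 1322113 and 4188983 counts a library. With 3 counts taken as the upper limit for a gene without any, 1 library can miss levels of up to 0.716 to 2.27 CPM (the count scaled to a library of standard size), which covers counting error only. Depth was 2805000 to 4189000 counts with BafA1 at 14 and 22 h, and 1332000 to 3057000 in DMSO at those times. RNA integrity numbers were 9.6 to 10 in the libraries that have one. Cx3cr1 and Csf1r, which mark microglia, were present in each library. Oligodendrocyte lineage, astrocyte and neuron markers were detected as well. Of the neuron markers, Rbfox3, Snap25 and Syt1 averaged 1.06, 1.17 and 2.43 CPM, near the limit above, and were not tested. Map2, Tubb3, Dcx and Stmn2 averaged 103, 36.3, 19.4 and 5.46 CPM.

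The mitotic genes stood at overlapping levels with BafA1 and with DMSO at 1 h, and at 14 and 22 h most of them were lower with BafA1. The summed level of the 35 genes was 424.1, 460.2 and 631.6 CPM with BafA1 at 1 h, against 405.3, 386.2 and 604.8 CPM in DMSO (replicates 1, 2 and 3 in order, here and below). At 7 h it was 340.2, 342.6 and 578.6 CPM with BafA1, against 441.8, 430.5 and 699.6 CPM in DMSO. At both of these times the groups overlapped, although each BafA1 library was above the DMSO library of the same replicate number at 1 h and below it at 7 h. By 14 h the sum was 145.4, 133.2 and 241.7 CPM with BafA1, against 456.8, 462.2 and 666.2 CPM in DMSO, and by 22 h it was 99.79, 102.7 and 119.8 CPM with BafA1, against 475.7, 462.4 and 755.7 CPM in DMSO. All BafA1 libraries lay below all DMSO libraries at 14 and 22 h. The BafA1 mean was 109% of the DMSO mean at 1 h, 80.2% at 7 h, 32.8% at 14 h and 19.0% at 22 h. These ratios are a description, with no test. Replicate 3 had the highest sum of its group in all 8 groups. In each group it also had the highest summed level of astrocyte markers and the lowest of microglia markers. Its sum of oligodendrocyte lineage markers was the highest in some groups only. A link of these offsets to the mitotic genes was not tested. In RNA from whole cultures, fewer dividing cells and less of these transcripts in each cell cannot be told apart.

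**Figure D2:**
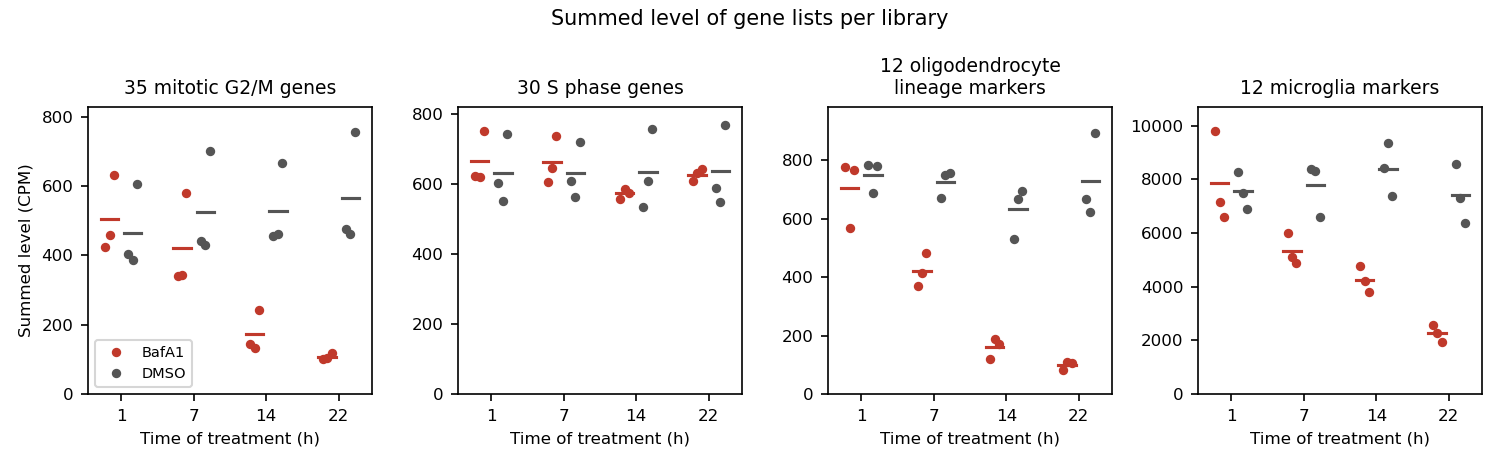
Summed level in CPM of 4 gene lists in each library at 1, 7, 14 and 22 h; points are libraries (BafA1 red, DMSO grey, 3 each), bars are group means. The mitotic genes average 107.4 CPM with BafA1 at 22 h and 564.6 CPM in DMSO. The S phase genes average 627.2 CPM with BafA1 and 636 CPM in DMSO at 22 h, a sum weighted toward abundant genes such as Pcna. Their median log2 change at 22 h is -0.47. The oligodendrocyte lineage and microglia markers are lower with BafA1 from 7 h.

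Single genes were tested with edgeR's quasi-likelihood test, and a gene is called where its adjusted p, taken over all 12648 genes tested, is under 0.05. At 1 h none of the 33 members was called, beside 0% of all genes. None was under 0.05 unadjusted either, beside 3% of all genes, and DESeq2 and limma-voom called none. At 7 h again none was called, beside 2.57% of all genes called lower and 4.57% called higher (7.14% in all). Unadjusted, 3 members were under 0.05 at 7 h (18.7% of all genes), and neither DESeq2 nor limma-voom called any. At 14 h 22 of the 33 were called lower and none higher, beside 12.1% of all genes called lower and 12.1% called higher (24.1% in all). At 22 h 29 were called lower and none higher, beside 22% of all genes called lower and 17.9% called higher (39.9% in all). Without adjustment, 22 members were under 0.05 at 14 h and 31 at 22 h, beside 35.5% and 48.1% of all genes.

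The median log2 change of the 33 was 0.03 at 1 h, -0.13 at 7 h, -1.46 at 14 h and -2.23 at 22 h, beside medians over all tested genes of 0.02, -0.02, -0.05 and -0.06. All BafA1 libraries lay below all DMSO libraries for 1 member at 1 h, 2 at 7 h, 21 at 14 h and 30 at 22 h, against 3.13%, 14%, 25.9% and 30.5% of all genes. The reverse order was seen in 0 members at each time, against 3.08%, 9.88%, 17% and 17.1% of all genes. The filter on low counts kept a gene that was high enough in at least 3 libraries of any groups, so these counts describe the tested members alone.

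Single libraries weighed on the count at 14 h, which was 14 without DMSO 14 h replicate 3, 14 without BafA1 14 h replicate 1 and 14 without BafA1 14 h replicate 2. Over all genes, 2494, 2558 and 2170 were then called either way, against 3054 with all libraries. At 22 h 24 to 29 members were called with any 1 library left out, beside 4166 to 5014 of all genes (5050 with all libraries). At 7 h 3 were called (Aurkb, Birc5 and Kif20a) without BafA1 7 h replicate 3, beside 697 of all genes (903 with all libraries). When the replicate number entered the fit as a block, 3 members were called at 7 h (5.13% of all genes were then called lower), 22 at 14 h (17.1%) and 30 at 22 h (26%). The 3 members called at 7 h with the block were Ube2c (log2 change -0.94 ± 0.28, edgeR adjusted p = 0.0217), Aurkb (-1.52 ± 0.51, adjusted p = 0.0469) and Birc5 (-0.89 ± 0.21, adjusted p = 0.00468).

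**Figure D3:**
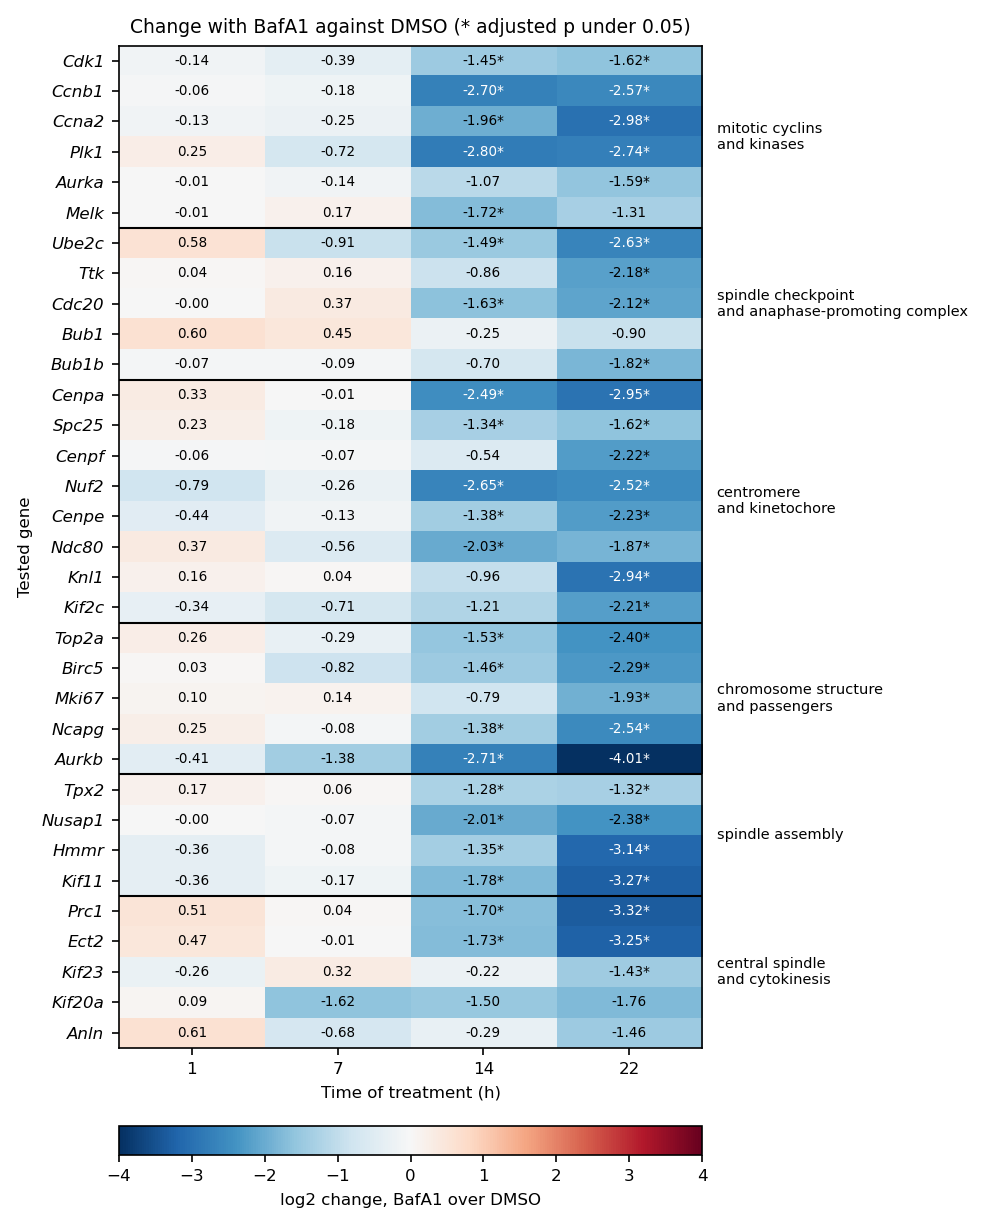
The log2 change (BafA1 over DMSO) of the 33 tested members at 1, 7, 14 and 22 h, grouped by role; blue is lower with BafA1, and a star marks an adjusted p under 0.05 in edgeR's quasi-likelihood test. No star stands at 1 or 7 h, 22 stand at 14 h and 29 at 22 h, all on negative values.

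Among the mitotic cyclins and kinases, 5 of 6 tested genes fell at 14 h and 5 of 6 at 22 h. Cdk1 is the kinase that drives mitosis. At 14 h Cdk1 had 17.1, 12.3 and 14.5 CPM with BafA1, against 42, 37.9 and 46.3 CPM in DMSO. At 22 h Cdk1 had 8.36, 11.8 and 11.1 CPM with BafA1, against 33.7, 30 and 43.3 CPM in DMSO. The highest BafA1 library lay below the lowest DMSO library at both times. Cdk1 fell with a log2 change of -1.45 ± 0.23 (SE) at 14 h and -1.62 ± 0.25 at 22 h (edgeR adjusted p = 4.17e-05 and 1.01e-05). At 1 h Cdk1 averaged 33.3 ± 10.9 CPM with BafA1 and 36.8 ± 7.2 CPM in DMSO, and at 7 h 28.8 ± 11 CPM with BafA1 and 39.8 ± 10.8 CPM in DMSO (SD, n = 3), so that the groups overlapped. Ccnb1 encodes cyclin B1, the partner that activates Cdk1. At 14 h Ccnb1 had 2.8, 3 and 6.42 CPM with BafA1, against 23.6, 28.8 and 32.4 CPM in DMSO. At 22 h Ccnb1 had 4.06, 2.85 and 2.93 CPM with BafA1, against 19.3, 27.8 and 20.7 CPM in DMSO. Again no BafA1 library reached the lowest DMSO library. The changes were -2.70 ± 0.38 at 14 h and -2.57 ± 0.41 at 22 h (edgeR adjusted p = 7.38e-06 and 1.63e-05). Ccnb1 averaged 17.1 ± 10.5 CPM with BafA1 and 18 ± 6.33 CPM in DMSO at 1 h, and 19.8 ± 4.76 CPM with BafA1 and 23.4 ± 10.9 CPM in DMSO at 7 h.

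Ccna2, the cyclin A2 gene, fell by 1.96 ± 0.51 on the log2 scale at 14 h and by 2.98 ± 0.60 at 22 h (edgeR adjusted p = 0.00572 and 0.000297). Plk1, the polo-like kinase of mitotic entry and centrosome maturation, changed by -2.80 ± 0.54 at 14 h, 6.97-fold lower with BafA1, and by -2.74 ± 0.59 at 22 h (edgeR adjusted p = 0.00036 and 0.000652). Aurka, a kinase of centrosomes and spindle poles, was at -1.07 ± 0.53 at 14 h, which did not pass (edgeR adjusted p = 0.144), and fell at 22 h (-1.59 ± 0.55, adjusted p = 0.0244). The Aurka call at 22 h ended without BafA1 22 h replicate 1 or 3 or DMSO 22 h replicate 1 or 3 (edgeR adjusted p = 0.0569 to 0.108). Melk, a kinase expressed in mitosis, was called at 14 h (-1.72 ± 0.63, edgeR adjusted p = 0.047) and not at 22 h (-1.31 ± 0.65, adjusted p = 0.108). The Melk call at 14 h ended when any 1 of the 6 libraries of that time was left out (edgeR adjusted p = 0.0531 to 0.196). Ccnb2, the cyclin B2 gene, had 103 counts over the 24 libraries. Its mean level was 1.17 ± 0.297 CPM with BafA1 and 1.47 ± 0.561 CPM in DMSO at 14 h, and 0.611 ± 0.531 CPM with BafA1 and 1.94 ± 0.939 CPM in DMSO at 22 h.

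Of the 5 genes of the spindle checkpoint and the anaphase-promoting complex, 2 fell at 14 h and 4 at 22 h. Ube2c is the ubiquitin-conjugating enzyme of the complex, which marks cyclin B for destruction. At 14 h Ube2c had 4.67, 4.01 and 6.42 CPM with BafA1, against 16.1, 11.3 and 17.6 CPM in DMSO. At 22 h Ube2c had 0.955, 2.14 and 2.64 CPM with BafA1, against 10.5, 10.5 and 18.6 CPM in DMSO. Both times every BafA1 library was below every DMSO library. Its log2 changes were -1.49 ± 0.33 and -2.63 ± 0.38 (edgeR adjusted p = 0.00129 at 14 h and 5.6e-06 at 22 h). Ube2c averaged 14.8 ± 2.43 CPM with BafA1 and 9.87 ± 5.03 CPM in DMSO at 1 h, where the groups overlapped. At 7 h it averaged 8.33 ± 2.63 CPM with BafA1 and 16.5 ± 3.59 CPM in DMSO, without overlap. Its change of -0.91 ± 0.33 at 7 h was not called outside the block (edgeR adjusted p = 0.103). Ttk encodes Mps1, the kinase that starts the checkpoint signal. At 14 h Ttk had 3.42, 2.75 and 7.49 CPM with BafA1, against 4.25, 9.59 and 12.2 CPM in DMSO. At 22 h Ttk had 1.91, 3.21 and 1.76 CPM with BafA1, against 10.5, 12 and 12.6 CPM in DMSO. The groups overlapped at 14 h, where the third BafA1 library lay above the first DMSO library, and were apart at 22 h. Ttk did not pass at 14 h (-0.86 ± 0.45, edgeR adjusted p = 0.171) and fell at 22 h (-2.18 ± 0.49, adjusted p = 0.000897). Its means were 8.52 ± 1.98 CPM with BafA1 and 8.11 ± 1.34 CPM in DMSO at 1 h, and 7.54 ± 5.93 CPM with BafA1 and 7.37 ± 2.3 CPM in DMSO at 7 h.

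Cdc20, the activator of the complex at anaphase, fell at 14 h (-1.63 ± 0.49, edgeR adjusted p = 0.0152) and at 22 h (-2.12 ± 0.53, adjusted p = 0.00235). The Cdc20 call at 14 h ended without BafA1 14 h replicate 1 or 2 or DMSO 14 h replicate 3 (edgeR adjusted p = 0.0548 to 0.0842). The Cdc20 call at 22 h ended without DMSO 22 h replicate 3 (edgeR adjusted p = 0.0551). The checkpoint gene Bub1b was called at 22 h (-1.82 ± 0.70, edgeR adjusted p = 0.0405). The Bub1b call at 22 h ended without BafA1 22 h replicate 2 or 3 or DMSO 22 h replicate 1, 2 or 3 (edgeR adjusted p = 0.0562 to 0.126). Without BafA1 14 h replicate 3 it was also called at 14 h (adjusted p = 0.0468). Bub1, a checkpoint kinase, was called at no time. Its level was 2.31 ± 1.11 CPM with BafA1 and 4.64 ± 1.48 CPM in DMSO at 22 h, a change of -0.90 ± 0.53 (edgeR adjusted p = 0.184).

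All 8 centromere and kinetochore genes fell at 22 h, and 5 of the 8 at 14 h. Cenpa encodes the histone H3 variant that marks the centromere. At 14 h Cenpa had 7.78, 6.51 and 11 CPM with BafA1, against 47.7, 48.3 and 53.4 CPM in DMSO. At 22 h Cenpa had 6.21, 5.7 and 3.81 CPM with BafA1, against 36.3, 23.3 and 79.6 CPM in DMSO. The BafA1 libraries lay far below the DMSO libraries at both times, and the DMSO libraries of 22 h were spread widely. Cenpa changed by -2.49 ± 0.29 at 14 h, 5.6-fold lower with BafA1, and by -2.95 ± 0.31 at 22 h (edgeR adjusted p = 4.55e-07 and 4.21e-08). At 1 h Cenpa averaged 42.9 ± 11.8 CPM with BafA1 and 33.8 ± 2.55 CPM in DMSO, and at 7 h 35.7 ± 3.46 CPM with BafA1 and 37.3 ± 5.42 CPM in DMSO. Spc25 is a subunit of the Ndc80 complex, which holds microtubules at the kinetochore. At 14 h Spc25 had 8.72, 13.5 and 15.8 CPM with BafA1, against 42.5, 21.7 and 37.9 CPM in DMSO. At 22 h Spc25 had 9.31, 6.42 and 11.1 CPM with BafA1, against 23.9, 25.5 and 44.8 CPM in DMSO. No library of the BafA1 groups reached the DMSO range. The changes of Spc25 were -1.34 ± 0.34 and -1.62 ± 0.36 (edgeR adjusted p = 0.0043 at 14 h and 0.000756 at 22 h). Spc25 averaged 34 ± 8.7 CPM with BafA1 and 28.8 ± 1.87 CPM in DMSO at 1 h, and 26.6 ± 14.8 CPM with BafA1 and 30.8 ± 9.8 CPM in DMSO at 7 h.

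The other subunits of the complex on the list moved likewise. Nuf2 fell by 2.65 ± 0.60 on the log2 scale at 14 h and by 2.52 ± 0.60 at 22 h (edgeR adjusted p = 0.00165 and 0.00163), and Ndc80 by 2.03 ± 0.47 and 1.87 ± 0.48 (adjusted p = 0.00221 and 0.00303). Knl1, the scaffold on which checkpoint proteins gather, did not pass at 14 h (-0.96 ± 0.62, edgeR adjusted p = 0.274) and fell at 22 h (-2.94 ± 0.70, adjusted p = 0.0016). Cenpf, a large protein of the outer kinetochore, stood at -0.54 ± 0.37 at 14 h (edgeR adjusted p = 0.314) and fell at 22 h (-2.22 ± 0.40, adjusted p = 8.21e-05). The kinesin Cenpe, which carries chromosomes to the spindle equator, fell at both times (-1.38 ± 0.46 and -2.23 ± 0.48, edgeR adjusted p = 0.0282 and 0.000606). The Cenpe call at 14 h ended without BafA1 14 h replicate 1 or 2 or DMSO 14 h replicate 2 or 3 (edgeR adjusted p = 0.0693 to 0.177). Kif2c, a kinesin that takes microtubule ends apart, was called at 22 h (-2.21 ± 0.72, edgeR adjusted p = 0.0164). The Kif2c call at 22 h ended without BafA1 22 h replicate 1 or 3 or DMSO 22 h replicate 3 (edgeR adjusted p = 0.0503 to 0.083).

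Of the genes of chromosome structure and the chromosomal passengers, 4 of 5 fell at 14 h and all 5 at 22 h. Top2a encodes the topoisomerase that untangles sister chromatids. At 14 h Top2a had 14, 17.8 and 27.6 CPM with BafA1, against 47.2, 58.3 and 76.1 CPM in DMSO. At 22 h Top2a had 9.79, 10.7 and 11.7 CPM with BafA1, against 67.4, 55.6 and 66 CPM in DMSO. The BafA1 and DMSO ranges were well apart, the more so at 22 h. Top2a changed by -1.53 ± 0.21 at 14 h and by -2.40 ± 0.23 at 22 h, 5.26-fold lower with BafA1 (edgeR adjusted p = 6.38e-06 and 9.49e-09). At 1 h Top2a averaged 59.3 ± 11.7 CPM with BafA1 and 49.3 ± 12.3 CPM in DMSO, and at 7 h 47.5 ± 15.7 CPM with BafA1 and 60.3 ± 12.8 CPM in DMSO. Birc5 encodes survivin, a subunit of the chromosomal passenger complex that corrects faulty attachments. At 14 h Birc5 had 13.1, 7.51 and 17.7 CPM with BafA1, against 33.1, 27.5 and 50 CPM in DMSO. At 22 h Birc5 had 5.97, 4.63 and 12.6 CPM with BafA1, against 45.8, 26.3 and 54.9 CPM in DMSO. Neither time showed an overlap. The changes of Birc5 were -1.46 ± 0.36 and -2.29 ± 0.38 (edgeR adjusted p = 0.00364 at 14 h and 3.26e-05 at 22 h). Birc5 averaged 45.5 ± 17.3 CPM with BafA1 and 45 ± 16.1 CPM in DMSO at 1 h, and 26.7 ± 15.3 CPM with BafA1 and 49.3 ± 13.5 CPM in DMSO at 7 h, when its change of -0.82 ± 0.35 was not called outside the block (edgeR adjusted p = 0.192).

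Aurkb, the kinase of the same passenger complex, showed the most negative log2 change of the 33 at 22 h (-4.01 ± 0.78, edgeR adjusted p = 0.00019), after -2.71 ± 0.64 at 14 h (adjusted p = 0.00274). The 3 BafA1 libraries of 22 h held 3 Aurkb counts together, against 38 in DMSO. The pooled BafA1 level was 4.83% of that in DMSO, with an exact 95% counting interval of 0.955% to 15.2%. Ncapg, a condensin subunit, fell by 1.38 ± 0.48 at 14 h and by 2.54 ± 0.60 at 22 h (edgeR adjusted p = 0.0377 and 0.00149). The Ncapg call at 14 h ended without BafA1 14 h replicate 1 or 3 or DMSO 14 h replicate 1 or 2 (edgeR adjusted p = 0.0535 to 0.172). Mki67, the gene of the proliferation marker Ki-67 that coats mitotic chromosomes, had 2.15, 2.5 and 2.34 CPM with BafA1, against 7.52, 10.5 and 12.6 CPM in DMSO at 22 h. It did not pass at 14 h (-0.79 ± 0.42, edgeR adjusted p = 0.182) and fell at 22 h (-1.93 ± 0.45, adjusted p = 0.00134).

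Each of the 4 tested spindle assembly genes fell at 14 h and at 22 h. Tpx2 encodes the factor that activates Aurka on spindle microtubules. At 14 h Tpx2 had 8.72, 6.76 and 20.9 CPM with BafA1, against 20.3, 27.9 and 44.3 CPM in DMSO. At 22 h Tpx2 had 7.4, 8.56 and 19 CPM with BafA1, against 24.2, 30.8 and 43.3 CPM in DMSO. The third BafA1 library of 14 h lay just above the first DMSO library, and at 22 h the groups were apart. Tpx2 changed by -1.28 ± 0.44 and -1.32 ± 0.45 (edgeR adjusted p = 0.0353 at 14 h and 0.0225 at 22 h). The Tpx2 call at 14 h ended without BafA1 14 h replicate 1 or 2 or DMSO 14 h replicate 2 or 3 (edgeR adjusted p = 0.0595 to 0.192). The Tpx2 call at 22 h ended without BafA1 22 h replicate 1 or 2 or DMSO 22 h replicate 3 (edgeR adjusted p = 0.0763 to 0.113). The estimated counts of Tpx2 were not whole numbers in 75% of libraries, so its separation from like sequences is uncertain. The same share was 66.7% for Cenpa, 62.5% for Prc1, 58.3% for Kif2c and 50% for Ccnb1. At 1 h Tpx2 averaged 26.9 ± 7.69 CPM with BafA1 and 23.8 ± 13 CPM in DMSO, and at 7 h 26.3 ± 17.8 CPM with BafA1 and 26.9 ± 14.7 CPM in DMSO. Nusap1 encodes a protein that bundles spindle microtubules. At 14 h Nusap1 had 4.36, 2.75 and 5.89 CPM with BafA1, against 17, 14.6 and 23.7 CPM in DMSO. At 22 h Nusap1 had 3.58, 1.78 and 4.69 CPM with BafA1, against 11.8, 27 and 23.2 CPM in DMSO. BafA1 libraries were lower than DMSO libraries without exception at both times. Nusap1 changed by -2.01 ± 0.40 and -2.38 ± 0.42 (edgeR adjusted p = 0.000433 at 14 h and 5.6e-05 at 22 h). Nusap1 averaged 15.2 ± 6.17 CPM with BafA1 and 15.2 ± 5.52 CPM in DMSO at 1 h, and 12.3 ± 3.53 CPM with BafA1 and 13.3 ± 3.33 CPM in DMSO at 7 h.

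Kif11, the kinesin that pushes spindle poles apart, changed by -1.78 ± 0.60 at 14 h and by -3.27 ± 0.66 at 22 h (edgeR adjusted p = 0.0315 and 0.000289). The Kif11 call at 14 h ended without BafA1 14 h replicate 1, 2 or 3 or DMSO 14 h replicate 1 or 3 (edgeR adjusted p = 0.0522 to 0.109). Hmmr, which helps to position the spindle, changed by -1.35 ± 0.41 and -3.14 ± 0.53 (edgeR adjusted p = 0.0187 and 4.04e-05). The Hmmr call at 14 h ended without BafA1 14 h replicate 1 or 2 or DMSO 14 h replicate 3 (edgeR adjusted p = 0.0601 to 0.2). Kif4, a kinesin of chromosome arms, had 85 counts over the 24 libraries. Its mean level was 0.774 ± 0.677 CPM with BafA1 and 1.02 ± 0.481 CPM in DMSO at 14 h, and 0.574 ± 0.243 CPM with BafA1 and 3.05 ± 1.3 CPM in DMSO at 22 h.

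Among the central spindle and cytokinesis genes, 2 of 5 fell at 14 h and 3 of 5 at 22 h. Prc1 encodes the protein that crosslinks the microtubules of the central spindle. At 14 h Prc1 had 3.42, 2.75 and 16.3 CPM with BafA1, against 11.8, 20.8 and 43.9 CPM in DMSO. At 22 h Prc1 had 4.3, 3.21 and 3.22 CPM with BafA1, against 27.8, 33.8 and 63.5 CPM in DMSO. The groups overlapped at 14 h, where the third BafA1 library stood well above the other two, and were far apart at 22 h. Prc1 changed by -1.70 ± 0.47 at 14 h and by -3.32 ± 0.51 at 22 h, 9.99-fold lower with BafA1 (edgeR adjusted p = 0.00881 and 1.21e-05). The Prc1 call at 14 h ended without BafA1 14 h replicate 1 or 2 or DMSO 14 h replicate 3 (edgeR adjusted p = 0.0529 to 0.137). At 1 h Prc1 averaged 32.1 ± 11.2 CPM with BafA1 and 22.1 ± 4.43 CPM in DMSO, and at 7 h 29.6 ± 5.1 CPM with BafA1 and 30 ± 11.6 CPM in DMSO. Ect2 encodes the exchange factor that activates RhoA at the cleavage furrow. At 14 h Ect2 had 6.85, 2.75 and 4.01 CPM with BafA1, against 15.6, 11.3 and 20.6 CPM in DMSO. At 22 h Ect2 had 1.67, 0.713 and 0.879 CPM with BafA1, against 11.1, 8.26 and 18.1 CPM in DMSO. The groups did not overlap at either time. Ect2 changed by -1.73 ± 0.48 and -3.25 ± 0.61 (edgeR adjusted p = 0.00974 at 14 h and 0.000132 at 22 h). The Ect2 call at 14 h ended without BafA1 14 h replicate 2 or DMSO 14 h replicate 3 (edgeR adjusted p = 0.0644 and 0.0538). Ect2 averaged 17.6 ± 10.4 CPM with BafA1 and 12.3 ± 9.35 CPM in DMSO at 1 h, and 13.2 ± 3.65 CPM with BafA1 and 14.2 ± 4.32 CPM in DMSO at 7 h.

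Kif23, the motor of the centralspindlin complex, was at -0.22 ± 0.45 at 14 h (edgeR adjusted p = 0.767) and fell at 22 h (-1.43 ± 0.48, adjusted p = 0.0194). The Kif23 call at 22 h ended without BafA1 22 h replicate 1 or 2 or DMSO 22 h replicate 3 (edgeR adjusted p = 0.0611 to 0.0791). Anln, the gene of the furrow scaffold anillin, was at -1.46 ± 0.63 at 22 h (edgeR adjusted p = 0.0677). In the blocked fit Anln was called (-1.44 ± 0.55, edgeR adjusted p = 0.0318), as it was without DMSO 22 h replicate 2 (adjusted p = 0.0459). Kif20a, a kinesin of the midzone, had 3.58, 0.713 and 1.17 CPM with BafA1, against 2.94, 3 and 17.1 CPM in DMSO at 22 h. Its groups overlapped and it was called at no time (-1.76 ± 0.84, edgeR adjusted p = 0.0958).

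**Figure D4:**
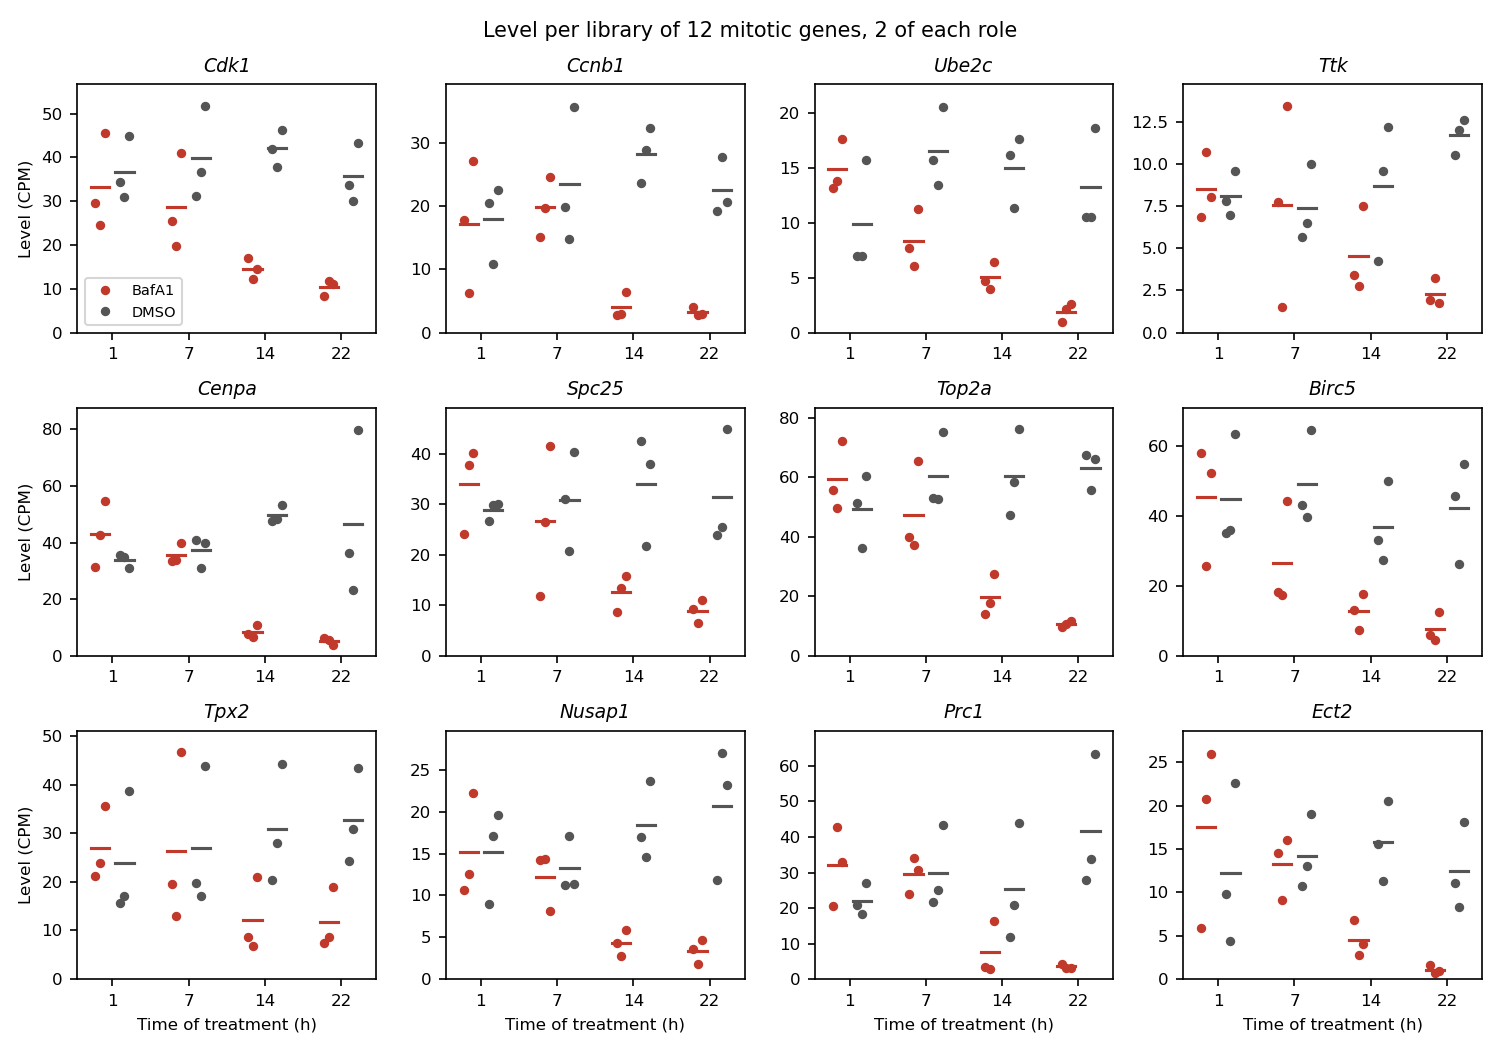
Level in CPM of 12 members, 2 of each role, in each library at 1, 7, 14 and 22 h; points are libraries (BafA1 red, DMSO grey, 3 each), bars are group means, and each panel has its own axis from 0. Top2a averages 10.7 CPM with BafA1 and 63 CPM in DMSO at 22 h, and in 9 of the 12 panels no BafA1 point reaches a DMSO point at 14 h.

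Across all settings and single libraries left out, 12 of the 22 calls at 14 h and 23 of the 29 at 22 h were made in every setting that tested them, and all of the called members kept a negative log2 change. The other calls are those named above as ending without a library and, at 14 h, Nuf2, which missed the threshold in libraries thinned to equal depth (edgeR adjusted p = 0.0516).

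The time course was tested within the same fit. Of the 33 members, 21 were called at both 14 and 22 h, Melk at 14 h alone, 8 at 22 h alone (Aurka, Bub1b, Ttk, Cenpf, Knl1, Kif2c, Mki67 and Kif23), and Bub1, Kif20a and Anln at no time. The log2 change was more negative at 22 h than at 14 h in 28 of the 33. The shares of all genes with these patterns of calls, or more negative at 22 h, were not counted. The difference of the BafA1 effect between 14 and 22 h had a median of -0.86 in the 33, beside -0.07 over all tested genes. A difference of the BafA1 effect between times was called in 21 of the 33 members, against 21.2% of all genes. That count was 9 without replicate 1, 13 without replicate 2 and 11 without replicate 3. Between 7 and 14 h the estimated effect became more negative in 31 of the 33, a share that was not counted over all genes. The median difference was -1.25 in the 33, beside -0.02 over all tested genes. The effect was called more negative in 3 members, against 1.53% of all genes (0.735% were called less negative or more positive, 2.26% in all). The 3 called were Cenpa (difference -2.47 ± 0.40, edgeR adjusted p = 0.000784), Ccnb1 (-2.52 ± 0.52, adjusted p = 0.0082) and Top2a (-1.25 ± 0.30, adjusted p = 0.0245). The blocked fit called 10 (4.21% of all genes). The 7 added were Ccna2, Cdk1, Plk1, Cdc20, Tpx2, Nusap1 and Prc1, with differences of -1.04 to -2.04.

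Between 1 and 7 h no member's effect was called different, against 0.656% of all genes called with a more negative effect (2.23% in all). Only 1 member was under an unadjusted p of 0.05, and DESeq2 and limma-voom called none. With the block Ube2c was called (-1.55 ± 0.39, edgeR adjusted p = 0.0133), 1 of 33 beside 1.98% of all genes called more negative in that fit (5.36% in all). Without DMSO 1 h replicate 3 the count was also 1. Between 14 and 22 h none was called in edgeR's test, against 1.57% of all genes called with a more negative effect (1.98% in all). There 6 members were under 0.05 unadjusted, and neither DESeq2 nor limma-voom called any. With the block Cenpf (-1.68 ± 0.52, edgeR adjusted p = 0.0477) and Top2a (-0.87 ± 0.25, adjusted p = 0.03) were called, 2 of 33 beside 4.43% of all genes called more negative in that fit (6.24% in all). For the 8 genes called at 22 h alone, that call beside none at 14 h is not shown to be a difference between the times in the main fit. Of these 8, Cenpf passed in the blocked fit only.

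In DMSO alone no member was called at 7, 14 or 22 h against 1 h by edgeR, DESeq2 or limma-voom, beside 0%, 0.00791% and 0.0316% of all genes called lower and 0.00791%, 0.142% and 0.372% called higher (0.00791%, 0.15% and 0.403% in all). Unadjusted, 1, 1 and 3 members were under 0.05. These 3 comparisons share the DMSO libraries of 1 h. The median log2 change of the 33 in DMSO was 0.10 at 7 h, 0.23 at 14 h and 0.21 at 22 h.

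Other genes of division were read from further lists. Of 54 other mitotic genes 46 were tested. At 14 h 18 of the 46 fell and none rose, against 12.1% of all genes called lower and 12.1% called higher. At 22 h 27 fell and none rose, against 22% called lower and 17.9% called higher. With the replicate block 21 fell at 14 h and 30 at 22 h, against 17.1% and 26% of all genes called lower. Their median log2 change was -1.13 at 14 h and -1.53 at 22 h. The 3 with the highest mean level behaved unevenly. Smc4, a condensin ATPase, averaged 59.9 ± 0.0851 CPM with BafA1 and 103 ± 33.4 CPM in DMSO at 22 h and was called (-0.60 ± 0.20, edgeR adjusted p = 0.0228). The Smc4 call at 22 h ended without BafA1 22 h replicate 1 or 3 or DMSO 22 h replicate 3 (edgeR adjusted p = 0.0605 to 0.262). It was also called at 14 h without DMSO 14 h replicate 1 (adjusted p = 0.0252). Smc2, its partner, was called at both times (-0.74 ± 0.24 and -1.21 ± 0.24, adjusted p = 0.0232 and 0.000279 in edgeR's test). The Smc2 call at 14 h ended without BafA1 14 h replicate 1 or 2 or DMSO 14 h replicate 3 (edgeR adjusted p = 0.0584 to 0.123). Pttg1, the gene of securin, which guards sister chromatid cohesion, was not (-0.26 ± 0.22 and -0.33 ± 0.23, edgeR adjusted p = 0.423 and 0.265).

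S phase genes, which copy DNA in the phase before G2, were called lower about as often as all genes. Of the 30 tested, 4 fell and 2 rose at 14 h, against 12.1% of all genes each way, and 6 fell and 3 rose at 22 h, against 22% called lower and 17.9% called higher. With the replicate block 2 rose at 7 h, 7 fell and 2 rose at 14 h, and 9 fell and 3 rose at 22 h. Of all genes 5.13%, 17.1% and 26% were then called lower at 7, 14 and 22 h (12.3%, 32.9% and 47.3% in all). The 30 S phase genes had a median log2 change of -0.54 at 14 h and -0.47 at 22 h. Medians over all tested genes were -0.05 and -0.06. Single changes were negative in 24 of the 30 at 14 h and in 22 at 22 h. The share of negative changes over all genes was not counted. The summed level of the S phase genes averaged 573.1 ± 14.1 CPM with BafA1 and 633.8 ± 113.6 CPM in DMSO at 14 h. At 22 h it averaged 627.2 ± 18.4 CPM with BafA1 and 636 ± 117.3 CPM in DMSO (SD, n = 3), with overlap at both times. The sum gives most weight to abundant genes such as Pcna, which rose. Pcna, the sliding clamp of DNA polymerases, averaged 217 ± 11 CPM with BafA1 and 145 ± 2.37 CPM in DMSO at 22 h. It rose at 14 h (0.63 ± 0.14, edgeR adjusted p = 0.00126) and at 22 h (0.74 ± 0.14, adjusted p = 0.000141). Cdt1, which licenses replication origins, rose at 7, 14 and 22 h, with changes of 1.17 ± 0.19, 1.38 ± 0.18 and 1.67 ± 0.18 at 7, 14 and 22 h (edgeR adjusted p = 0.000148, 3.72e-06 and 7.62e-08). Lig1, the ligase of lagging strands, fell at 14 h (-0.90 ± 0.24, edgeR adjusted p = 0.00742) and was not called at 22 h (-0.59 ± 0.25, adjusted p = 0.0621) outside the block (-0.62 ± 0.23, adjusted p = 0.0248). The Lig1 call at 14 h ended without BafA1 14 h replicate 3 or DMSO 14 h replicate 3 (edgeR adjusted p = 0.0593 and 0.0625). The Lig1 call at 22 h was made without BafA1 22 h replicate 2 or DMSO 22 h replicate 2 (edgeR adjusted p = 0.0218 and 0.0365).

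The list of 10 genes that control entry into mitosis had 8 tested, of which 2 rose at 14 h, and 2 rose and 1 fell at 22 h. Of all genes 12.1% were called higher at 14 h, and 17.9% higher and 22% lower at 22 h. Wee1, the kinase that keeps Cdk1 inactive, averaged 17.1 ± 0.865 CPM with BafA1 and 6.23 ± 1.79 CPM in DMSO at 14 h, and 37.7 ± 5.42 CPM with BafA1 and 4.86 ± 3.68 CPM in DMSO at 22 h. Its changes were 1.52 ± 0.31 and 3.11 ± 0.32 (edgeR adjusted p = 0.000608 and 3.21e-08). Gadd45a, a stress-induced gene whose product can inhibit Cdk1 with cyclin B, averaged 54.8 ± 7.36 CPM with BafA1 and 7.4 ± 5.82 CPM in DMSO at 22 h. It changed by 1.80 ± 0.42 at 14 h and 3.09 ± 0.41 at 22 h (edgeR adjusted p = 0.00245 and 1.46e-06). Chek1, the kinase that answers stalled replication, fell at 22 h (-2.16 ± 0.71, edgeR adjusted p = 0.0173). The Chek1 call at 22 h ended without BafA1 22 h replicate 3 or DMSO 22 h replicate 3 (edgeR adjusted p = 0.0587 and 0.102). Cdc25a, a phosphatase that activates cyclin-dependent kinases, was not called (-0.11 ± 0.20 and 0.23 ± 0.21, edgeR adjusted p = 0.751 and 0.382).

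Of 15 G1 cyclins, cyclin-dependent kinases and their inhibitors, 2 rose and 2 fell at 14 h, against 12.1% of all genes each way, and 1 rose and 4 fell at 22 h, against 17.9% called higher and 22% called lower. The counts at 14 h, and that of genes lower at 22 h, are near those shares. With the replicate block 3 rose and 4 fell at 14 h, and 2 rose and 5 fell at 22 h, where 17.1% and 26% of all genes were called lower (32.9% and 47.3% in all). The D cyclins, which carry growth signals into the cycle, fell at 22 h: Ccnd1 by 0.95 ± 0.26, Ccnd2 by 1.21 ± 0.41 and Ccnd3 by 2.36 ± 0.20 on the log2 scale (edgeR adjusted p = 0.0059, 0.0202 and 1.29e-09). The Ccnd1 call at 22 h ended without DMSO 22 h replicate 3 (edgeR adjusted p = 0.0514). The Ccnd2 call at 22 h ended without BafA1 22 h replicate 1 or 2 or DMSO 22 h replicate 1 or 3 (edgeR adjusted p = 0.0656 to 0.105). With the block Ccnd2 was called at 14 h too (-0.92 ± 0.17, adjusted p = 0.000121), as it was without BafA1 14 h replicate 3 (adjusted p = 0.026). Ccnd3 was also lower at 14 h (-1.91 ± 0.20, edgeR adjusted p = 6.02e-08). Of their kinases, Cdk6 rose at 14 h (0.81 ± 0.16, edgeR adjusted p = 0.000435) and Cdk4 rose at 22 h (0.65 ± 0.17, adjusted p = 0.00379). Cdkn1a, the gene of the inhibitor p21, averaged 545 ± 128 CPM with BafA1 and 378 ± 103 CPM in DMSO at 14 h and was not called (0.61 ± 0.24 at 14 h and 0.48 ± 0.24 at 22 h, edgeR adjusted p = 0.0711 and 0.118). In the blocked fit Cdkn1a was called higher at 14 h (0.61 ± 0.09, adjusted p = 3.05e-06 in edgeR's test) and at 22 h (0.50 ± 0.09, adjusted p = 4.2e-05). The Cdkn1a call at 14 h was made without DMSO 14 h replicate 3 (edgeR adjusted p = 0.0412). The inhibitor gene Cdkn2b rose at 14 h (1.09 ± 0.40, edgeR adjusted p = 0.0463), while Cdkn2c fell (-1.88 ± 0.45, adjusted p = 0.00307). The Cdkn2b call at 14 h ended without BafA1 14 h replicate 1, 2 or 3 or DMSO 14 h replicate 1 or 2 (edgeR adjusted p = 0.0573 to 0.204).

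Among 19 tested genes of DREAM, MuvB and E2F, which act on the CHR and E2F elements of cell cycle promoters, 1 rose and 1 fell at 14 h, against 12.1% of all genes each way, and 3 rose and 5 fell at 22 h, against 17.9% called higher and 22% called lower. The shares at 22 h are near those of all genes. The 5 that fell are named here because of their small number, after their values were seen. Foxm1, the activator of G2/M genes, averaged 0.831 ± 0.321 CPM with BafA1 and 4.57 ± 0.665 CPM in DMSO at 22 h and fell (-2.17 ± 0.51, edgeR adjusted p = 0.00148). Mybl1, the gene of A-Myb, fell at 14 and 22 h (-1.61 ± 0.44 and -1.60 ± 0.48, edgeR adjusted p = 0.00871 and 0.00991). The Mybl1 call at 14 h ended without BafA1 14 h replicate 2 (edgeR adjusted p = 0.0598). The Mybl1 call at 22 h ended without BafA1 22 h replicate 1 or DMSO 22 h replicate 2 (edgeR adjusted p = 0.0722 and 0.0545). Of the MuvB core, Lin54, the subunit that contacts the CHR, rose at 7, 14 and 22 h (0.87 ± 0.22, 0.72 ± 0.22 and 1.54 ± 0.22, edgeR adjusted p = 0.0131, 0.017 and 2.9e-06). The Lin54 call at 7 h ended without BafA1 7 h replicate 2 or DMSO 7 h replicate 1 (edgeR adjusted p = 0.0932 and 0.0756). The Lin54 call at 14 h ended without BafA1 14 h replicate 2 or DMSO 14 h replicate 2 (edgeR adjusted p = 0.0546 and 0.0906). Lin52 rose at 22 h (0.97 ± 0.33, edgeR adjusted p = 0.0224) and Lin9 fell (-1.22 ± 0.38, adjusted p = 0.0115). The Lin52 call at 22 h ended without BafA1 22 h replicate 3 or DMSO 22 h replicate 1 or 3 (edgeR adjusted p = 0.0541 to 0.077). The Lin9 call at 22 h ended without BafA1 22 h replicate 2 or DMSO 22 h replicate 2 (edgeR adjusted p = 0.0533 and 0.0862). E2f6, a repressor of the E2F family, rose at 22 h (0.78 ± 0.27, edgeR adjusted p = 0.0262). The E2f6 call at 22 h ended without BafA1 22 h replicate 2 or DMSO 22 h replicate 2 (edgeR adjusted p = 0.0682 and 0.132). Rbl2, the gene of the pocket protein p130 of DREAM, fell (-1.05 ± 0.21, edgeR adjusted p = 0.000239), as did Tfdp1, which encodes a partner of the E2F proteins (-0.67 ± 0.24, adjusted p = 0.0301). The Tfdp1 call at 22 h ended without BafA1 22 h replicate 2 or 3 or DMSO 22 h replicate 3 (edgeR adjusted p = 0.081 to 0.234). The 3 with the highest mean level, Rbbp4, Tfdp2 and Rb1, were not called at 14 or 22 h. In the blocked fit Rbbp4 (0.29 ± 0.11, adjusted p = 0.0264 in edgeR's test) and Tfdp2 (-0.71 ± 0.24, adjusted p = 0.0154) were called at 22 h. The calls of Foxm1 and Rbl2 at 22 h were made in every setting that tested them.

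**Figure D5:**
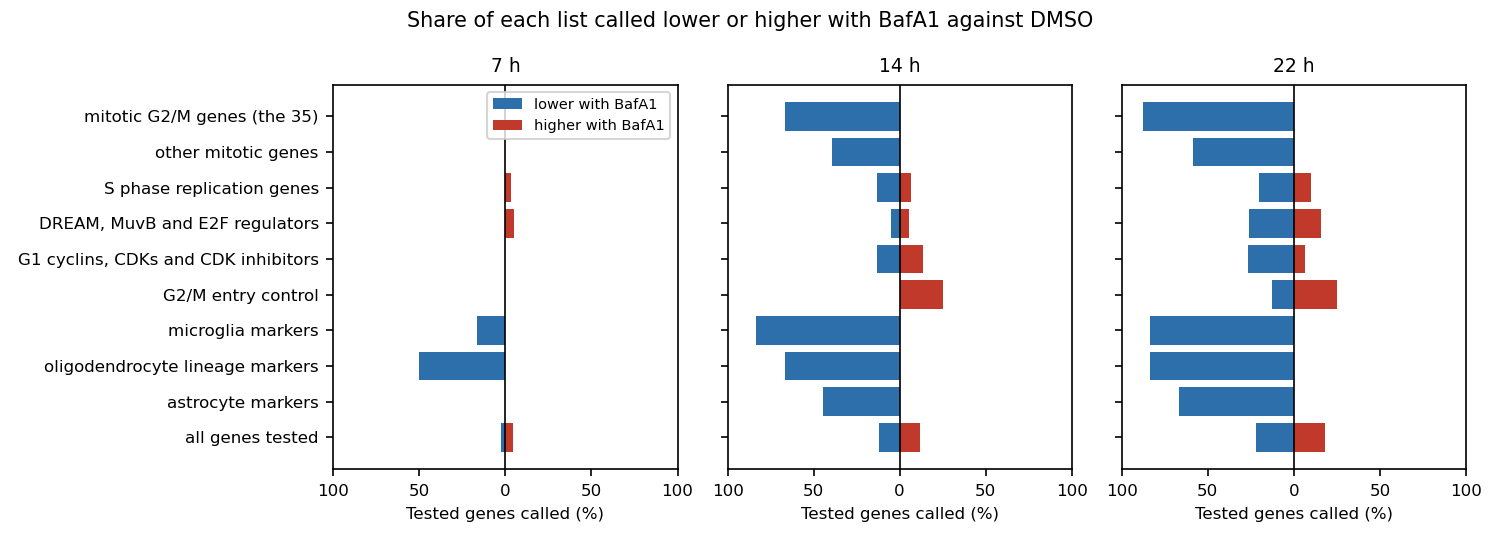
Share of the tested genes of each list called lower (blue, to the left) or higher (red, to the right) with BafA1 against DMSO at 7, 14 and 22 h, in percent, with all 12648 genes tested in the last row. The 35 mitotic genes have 22 of 33 called lower at 14 h and 29 of 33 at 22 h, and no member called higher. Microglia and oligodendrocyte lineage markers are called lower in 10 of 12 cases each at 22 h.

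Markers of cell types moved over the same hours. Of all genes 2.57%, 12.1% and 22% were called lower at 7, 14 and 22 h, and 5.13%, 17.1% and 26% with the replicate block; the marker counts below stand beside these shares. Of 12 oligodendrocyte lineage markers, 6, 8 and 10 were called lower at 7, 14 and 22 h (6, 11 and 10 with the replicate block). Their summed level was 369.1 to 484.1 CPM with BafA1 and 671.5 to 757.1 CPM in DMSO at 7 h, 121.1 to 187.5 CPM with BafA1 and 531.4 to 695.3 CPM in DMSO at 14 h, and 82.12 to 110.2 CPM with BafA1 and 624.6 to 894.8 CPM in DMSO at 22 h. The groups were apart at each of these times. At 7 h the summed level of the mitotic genes overlapped between the groups, and was lower with BafA1 in each of the 3 same-numbered pairs. Pdgfra, the receptor that keeps oligodendrocyte precursors dividing, averaged 61.4 ± 8.44 CPM with BafA1 and 130 ± 10.3 CPM in DMSO at 7 h, and 2.33 ± 0.535 CPM with BafA1 and 135 ± 27.7 CPM in DMSO at 22 h. It fell at 7, 14 and 22 h (-1.04 ± 0.17, -4.06 ± 0.21 and -5.67 ± 0.25, edgeR adjusted p = 0.000263, 1.56e-12 and 2e-14). Olig1 and Mbp of the same list fell at 22 h by 5.22 ± 0.30 and 1.41 ± 0.23 on the log2 scale (edgeR adjusted p = 1.61e-12 and 3.11e-05). Of this list C1ql1 and Gpr17 were at 0 in 2 and 1 of the 24 libraries.

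Of 12 microglia markers, 2, 10 and 10 were called lower at 7, 14 and 22 h. The blocked fit called 8 at 7 h, 10 at 14 h and 10 at 22 h. Their sum was 4874 to 6009 CPM with BafA1 and 6598 to 8393 CPM in DMSO at 7 h, 3788 to 4783 CPM with BafA1 and 7392 to 9341 CPM in DMSO at 14 h, and 1928 to 2585 CPM with BafA1 and 6361 to 8556 CPM in DMSO at 22 h. None of the 12 was at 0 in any library. Cx3cr1, the fractalkine receptor, and Csf1r, the receptor for the microglial growth factor, fell at 22 h by 3.12 ± 0.21 and 1.71 ± 0.21 on the log2 scale (edgeR adjusted p = 2.99e-11 and 4.35e-07). Of 9 tested astrocyte markers, 0, 4 and 6 were lower at 7, 14 and 22 h (0, 4 and 8 with the block). The most abundant, Aldoc, changed by -2.27 ± 0.21 at 22 h (edgeR adjusted p = 4.38e-09). Their sum was 70.35 to 174 CPM with BafA1 and 153.5 to 315 CPM in DMSO at 14 h, and 41.35 to 110.1 CPM with BafA1 and 184.7 to 388.4 CPM in DMSO at 22 h. Gjb6 was at 0 in all 24 libraries. Of 4 tested neuron markers 3 were lower at 14 h and 3 at 22 h, with sums of all 7 of 23.87 to 34.27 CPM with BafA1 and 190.4 to 244.8 CPM in DMSO at 22 h. The Dcx call at 14 h ended without BafA1 14 h replicate 2 or 3 or DMSO 14 h replicate 2 (edgeR adjusted p = 0.0647 to 0.214). Both tested border macrophage markers, Pf4 and Mrc1, were lower at 14 and 22 h, and Pf4 at 7 h too with the block (-0.50 ± 0.17, adjusted p = 0.0486 in edgeR's test), with a summed level of all 7 of 25.78 to 35.29 CPM with BafA1 and 95.34 to 134.8 CPM in DMSO at 22 h. Of 4 tested fibroblast and vascular markers, Pecam1 was lower at 7, 14 and 22 h, with Col1a1 and Col1a2 added at 22 h in the blocked fit, which called Col1a1 higher at 14 h. The list's 9 genes summed to 7.13 to 55.07 CPM with BafA1 and 18.02 to 93.2 CPM in DMSO at 22 h, and Cldn5 and Lyve1, of the vascular and border macrophage lists, were at 0 in 19 libraries each. Which of these cells carried the mitotic transcripts cannot be read from the libraries, and the part of these marker changes in the fall of the mitotic genes was not tested.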

How the data were processed

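RNA of 24 cultures was sequenced with a 3′ tag kit that carries molecular identifiers (QuantSeq FWD), per the labels' protocols. The authors deposited 1 table of estimated counts for 56980 genes, made with Salmon on the mouse build GRCm39, per the submitters' processing notes. No source used here gives the Salmon version, the annotation release or the treatment of the identifiers. Of the deposited estimated counts above 0, 37.1% were not whole, so reads shared with like sequences may be split between genes; all were rounded. CPM is the rounded count scaled to the library's total and is not divided by gene length.

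Genes passing filterByExpr over the 8 groups (min.count 10, min.total.count 15; 12648 genes, which left 0.7% of counts untested) were fitted with edgeR 4.0.16 (R 4.3.3): TMM scaling, 1 coefficient for each group, quasi-likelihood tests, and Benjamini-Hochberg adjustment over all genes tested. Errors of log2 changes are standard errors (SE), taken as the change divided by the root of F. The fit was also run on simulated data, with results not given here. Alternatives were RLE scaling, no filter, a mean of at least 5 CPM, DESeq2 1.42.0, limma-voom 3.58.1, libraries thinned to 1322113 counts, the 6 libraries of 1 time alone, a replicate block and leaving out each library. Replicates of a group differed by more than counting noise in every pair.

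Replicate numbers come from the labels. Deviations from the group means correlated at 0.148 to 0.34 (median 0.203) in all 12 same-numbered BafA1 and DMSO pairs of 1 time. The numbers were therefore taken to pair the samples in the replicate block, which is an alternative fit. The main fit ignores this pairing, so its calls are those of an unpaired test.

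The members and all gene lists were chosen with earlier results of these data known. Values in every library are given for the 2 tested members of each role with the highest mean CPM. From every other list the 3 genes with the highest mean CPM and those called against the list's majority are named, except some single genes whose values are not reported here; further genes are named as chosen afterwards. Promoter windows are RefSeq's (GRCm38.p6), while the counts refer to GRCm39, and were matched by symbol for 31 of 35 members. Where a gene had several windows, the shares of genes count a match in any of them. The members' motif positions and printed sequences are from the first window. The positions over all promoters are from every window.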

Additional observations from a re-analysis of the deposited data

Results flagged for a closer look

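The effect of BafA1 differed between 7 and 14 h in 3 members, by edgeR's test of the difference itself. It was more negative at 14 h by -2.52 ± 0.52 on the log2 scale for Ccnb1 (SE, edgeR adjusted p = 0.0082), by -2.47 ± 0.40 for Cenpa (adjusted p = 0.000784) and by -1.25 ± 0.30 for Top2a (adjusted p = 0.0245). In all 3 genes every BafA1 library lay below every DMSO library at 14 h, and the groups overlapped at 7 h.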

How the results depend on the processing

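No direction of a called member was reversed by any setting. Without the low-count filter 1 member was called at 7 h (Birc5) and 6 were called with a more negative effect at 14 h than at 7 h. Kif20a was then called at 22 h, and Melk, Cenpe, Ncapg and Hmmr at 14 h and Bub1b at 22 h were not. With the replicate block the counts were 3 at 7 h, 1 for 7 against 1 h, 10 for 14 against 7 h and 2 for 22 against 14 h. The block changed no other count of members by over 1.5 times; beyond those named, it added Anln at 22 h.

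With 1 library left out, members called numbered 0 to 3 at 7 h (3 without BafA1 7 h replicate 3), 14 to 20 at 14 h, 24 to 29 at 22 h, 0 to 1 for 7 against 1 h (1 without DMSO 1 h replicate 3), 2 to 4 for 14 against 7 h, and 9 to 13 for the treatment by time test with a whole replicate number left out. The 1 h and DMSO counts stayed at 0. Over all genes, calls with 1 library left out numbered 573 to 804 at 7 h, 2170 to 2636 at 14 h and 4166 to 5014 at 22 h. For the tests between times the calls over all genes were not counted in these settings. The summed level with BafA1, in percent of DMSO, was 95 to 128 at 1 h, 65.2 to 96.4 at 7 h, 26.4 to 37.7 at 14 h and 17.4 to 22.9 at 22 h. Neither thinning nor TMM-scaled library sizes moved the sum by more than the spread between replicates; these and the single-library values of the sum were chosen after seeing the data. At 14 and 22 h thinning left 15 and 25 members called, beside 2355 and 4116 of all genes (3054 and 5050 in the main fit). Ccnb2 and Kif4 were tested only without the low-count filter and were not called. At 22 h their changes were then -1.2 ± 0.859 and -1.986 ± 0.855 (edgeR adjusted p = 0.585 and 0.139). Genes with so few counts could not be judged well at this depth. The causes of these shifts were not tested.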
